A study of Mus musculus with 69 samples.

Results

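Ribosome-bound mRNA of parvalbumin (PV) interneurons was compared between primary visual cortex (V1) and primary somatosensory cortex (S1) of mice that lack Fmr1. The comparison rests on 20 of the 69 libraries of the series, 10 from V1 and 10 from S1, chosen by their labelled genotype, cell class and area. All came from PV-Cre-Rpl22HA/HA mice of the Fmr1 knockout (KO) genotype, 70 to 100 days old and of both sexes, and each library holds the tissue of 1 animal dissected on both sides of the brain. In these mice Cre, driven from the Pvalb gene, switches on an HA-tagged copy of the ribosomal protein RPL22, so that ribosomes can be pulled from cortex homogenate with an antibody to HA (RiboTag). Any cell that has used Pvalb-driven Cre is tagged, and mRNA of untagged cells can be carried along. V1 was sampled in animals P5, P6, P7, P9, P10, P11, P12, P23, P24 and P25, and S1 in the same animals with P8 in place of P7, so that 9 animals gave both areas. Further sets served for comparison: 20 PV libraries of wild-type (WT) PV-Cre-Rpl22HA/HA mice, 10 per area, and 13 libraries of Fmr1 KO Camk2a-Cre-Rpl22HA/HA mice, 6 from V1 and 7 from S1, which sample mainly excitatory neurons. Estimated counts in the 20 libraries summed to 30.8 to 46.8 M (M, 1e+06), with means of 38.87 ± 3.98 M (SD, n = 10) in V1 and 37.86 ± 3.84 M in S1.

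Cortical PV interneurons are fast-spiking inhibitory cells, mostly basket and chandelier cells, that set the timing and gain of pyramidal cell firing. They depend on Kv3 potassium channels, on dense mitochondria and on perineuronal nets, the matrix lattices that wrap many of them. V1 and S1 receive different thalamic input, vision in the first and touch in the second, and excitatory neurons of different areas are known to differ in gene expression more than inhibitory ones. FMRP, the product of Fmr1, is an RNA-binding protein that regulates translation, and its loss causes fragile X syndrome in humans. Comparing areas within the KO asks which ribosome-bound mRNAs of PV cells depend on cortical area when FMRP is missing.

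Fmr1 (chromosome X, 68678541 to 68717963, plus strand, mm10) was first checked against the genotype labels. Its level in CPM, the count scaled to a library total of 1e+06, was 11 ± 2.35 (SD, n = 10) in KO V1 and 10.1 ± 1.75 in KO S1 libraries, and the highest KO PV library, at 16 CPM, lay below the lowest WT PV library, at 38.6 CPM. Between the areas of the KO it differed by less than the spread of libraries (log2 0.09 ± 0.11 SE, adjusted p = 0.636). The cell class label was checked with markers. Gad1, which makes GABA, lay at 3540 ± 403 CPM in KO PV V1 and 45.5 ± 60.8 CPM in KO Camk2a V1 libraries, and Pvalb at 424 ± 81.9 against 5.27 ± 6.64 CPM. Slc17a7, the glutamate transporter of pyramidal cells, lay at 201 ± 41.9 against 2400 ± 156 CPM, and Camk2a still reached 927 ± 183 CPM in KO PV V1, and thus mRNAs of excitatory neurons were detected in the PV libraries. Summed Y-linked genes lay at 93.4 and 92.5 CPM in the V1 and S1 libraries of P11, which is labelled female, inside the range of the labelled males, 70.6 to 109 CPM, and far above the other females, 0.688 to 1.58 CPM.

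Some libraries went against their area label. An area score was built from WT PV libraries alone, as the mean log2 CPM of 50 genes higher in V1 minus that of 50 genes higher in S1, and the boundary, -1.94, was set midway between the WT group means. Of the KO PV libraries, 3 lay on the side of the other area. These were the V1 and S1 libraries of P9, at -2.23 and -1.56, and the V1 library of P24, at -2.38, next to its S1 library at -2.13. The other 8 V1 libraries lay between -1.76 and -0.91, and the S1 libraries other than that of P9 between -2.75 and -1.95. The WT PV animal P22 also had its areas reversed. No label was changed. Each result below is given for all 20 libraries, and where stated also without P9 and P24. Because those animals were set aside by their area genes, the narrower comparison is a description and not separate evidence. Of the 100 score genes, 61 were among the genes called in the KO.

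**Figure D1:**
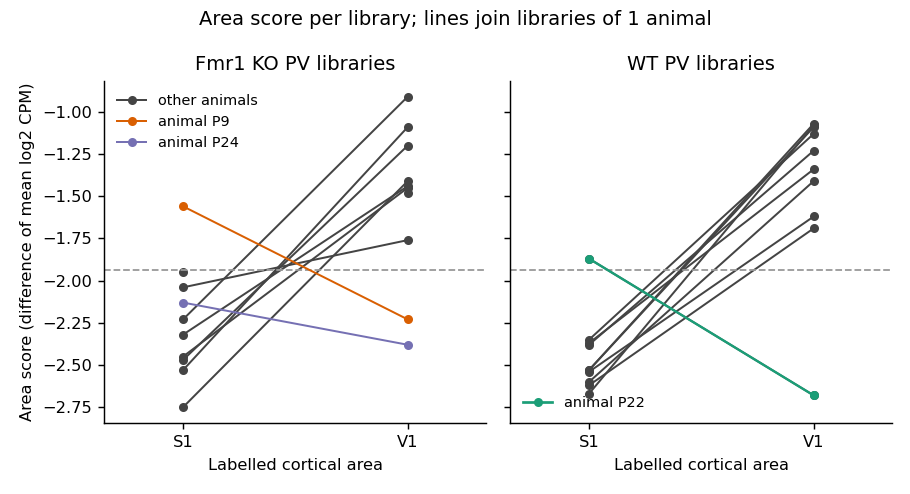
Area score of each PV library (difference of mean log2 CPM, vertical axis) by labelled area (horizontal axis), KO on the left and WT on the right. Lines join the areas of 1 animal and the dashed line is the boundary at -1.94. P9 runs from -1.56 in S1 to -2.23 in V1, and both libraries of P24 lie below the boundary.

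V1 and S1 PV libraries of the KO differed in 1218 of 16118 genes tested (7.56%), 559 higher in V1 (3.47%) and 659 lower in V1 (4.09%), by edgeR's quasi-likelihood test with sex as a covariate and a Benjamini-Hochberg adjusted p under 0.05, which is what "called" means throughout. Immediate early genes, mRNAs that neurons induce within minutes of firing, were among those higher in V1, together with the adhesion protein gene Tenm2 and the calcium pump gene Atp2b4. Those lower in V1 included many oxidative phosphorylation genes, Pvalb itself, and the perineuronal net gene Acan, while potassium channel, PV marker and matrix lists held called genes in both directions. The calls sat close to the threshold: the smallest adjusted p of any gene was 0.0248, while 4535 genes had an unadjusted p under 0.05. In immunoprecipitates pooled over all tagged cells of an area, fewer cells with an mRNA and less mRNA per cell cannot be told apart. The count depended on single animals. It was 0 without P5, P6, P10, P12, P23 or P25, 408 without P7, 2508 without P9 and 2354 without P24. With the animal as a block over the 9 animals with both areas it was 0, with 4780 genes at an unadjusted p under 0.05. Without P9 and P24 it was 3479 (21.6%, 1639 or 10.2% higher and 1840 or 11.4% lower), and 4617 (28.6%, with 13.5% higher and 15.1% lower) with the block in addition. Of the 1218 genes, 1204 were called again without P9 and P24. In the 7 animals with both areas other than P9 and P24, 418 of the 559 were higher in V1 in every animal, and 519 of the 659 lower in every animal. Over all genes tested 1829 (11.3%) were higher and 1416 (8.79%) lower in each of the 7. Since the called genes were chosen from these same libraries, their counts are a description.

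Markers of other cells moved with area. A glial score, the mean log2 CPM of astrocyte, oligodendrocyte, microglia and vascular markers, was 2.21 ± 0.24 (SD, n = 10, range 1.90 to 2.58) in V1 and 1.90 ± 0.20 (1.58 to 2.23) in S1. A purity score, the mean log2 CPM of PV markers minus that of excitatory markers, was 3.44 ± 0.21 in V1 and 3.52 ± 0.17 in S1. With the glial score as a covariate 0 genes were called (698 at an unadjusted p under 0.05), or 434 without P9 and P24. With the purity score 496 were called, 491 of them among the 1218, or 3258 without P9 and P24 (20.2%, with 9.8% higher and 10.4% lower). Glial content and area went together in these libraries. The glial score was lower in V1 than in S1 in P9 (2.00 and 2.23), P24 (1.90 and 1.96) and P11 (2.06 and 2.16). It was higher in V1 in the other animals with both areas. Setting aside P9 and P24 therefore also changed the glial difference between the areas.

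**Figure D2:**
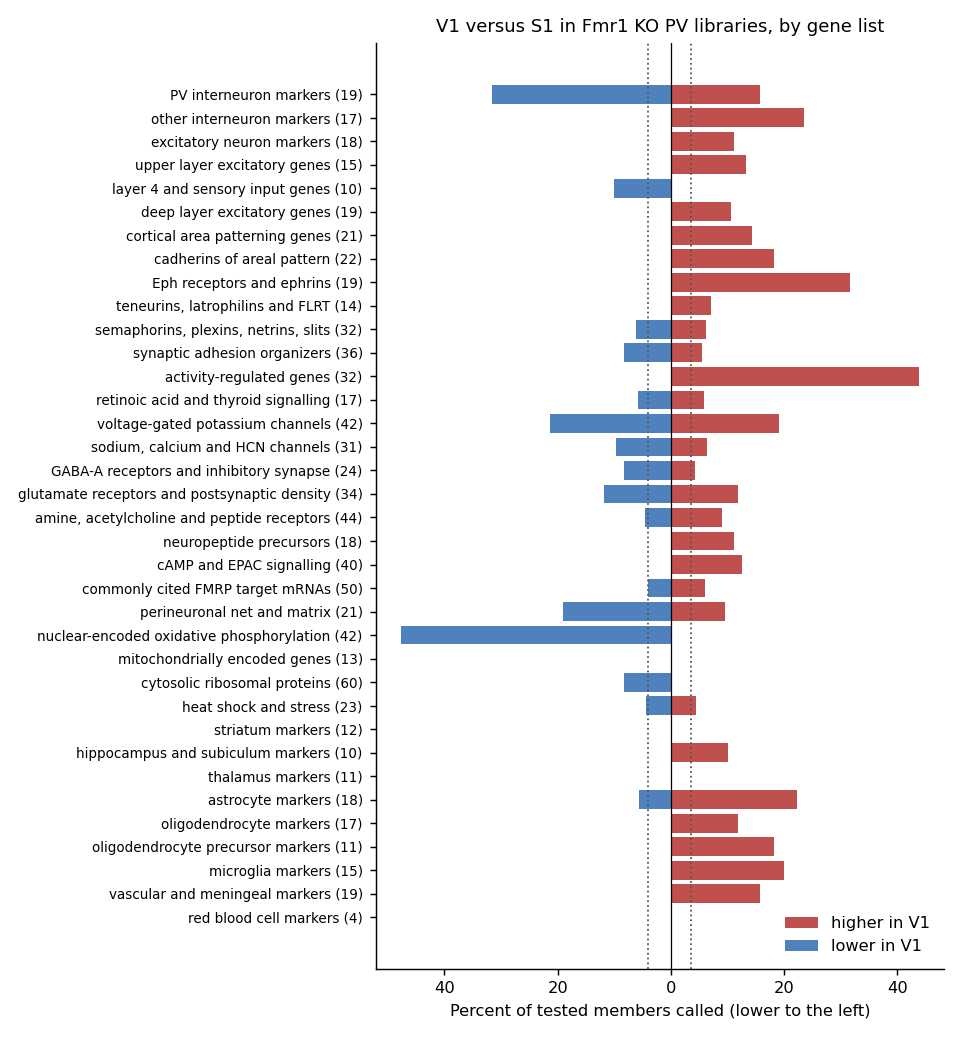
Percent of the tested members of each gene list (number in brackets) called higher (right) or lower (left) in V1 than in S1, KO PV libraries. Dotted lines mark the percents over all genes tested, 3.47 higher and 4.09 lower. Activity-regulated genes reach farthest to the right and oxidative phosphorylation genes farthest to the left.

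Activity-regulated genes were higher in V1. Of 32 tested, 14 were called higher (43.8%, against 3.47% of all genes tested) and 0 lower. The log2 difference was positive in 30, and its median was 0.78, against 0.01 over all genes. The called members were Fos, Junb, Jun, Egr2, Npas4, Nr4a1, Nr4a2, Nr4a3, Ier2, Dusp1, Btg2, Klf4, Sik1 and Nptx2. Transcription from several of these genes is known to be switched on through CREB, a factor that binds TGACGTCA or its shorter form TGACG. The promoters of Fos, Nr4a1 and Npas4 are shown because these genes moved together and their start regions can be read for that motif. They come from RefSeq (GRCm38.p6) and read 5′ to 3′ on the gene's strand, with capitals marking TGACG or, on the other strand, CGTCA. Fos lies on the plus strand at chr12:85473640-85473939, Nr4a1 on the plus strand at chr15:101266596-101266895 and Npas4 on the minus strand at chr19:4989922-4990221.
Fos: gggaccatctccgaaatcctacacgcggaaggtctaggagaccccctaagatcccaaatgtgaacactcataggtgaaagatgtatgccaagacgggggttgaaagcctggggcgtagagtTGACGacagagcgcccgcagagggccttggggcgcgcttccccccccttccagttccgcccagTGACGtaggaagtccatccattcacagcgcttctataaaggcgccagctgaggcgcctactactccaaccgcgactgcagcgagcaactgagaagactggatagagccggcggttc
Nr4a1: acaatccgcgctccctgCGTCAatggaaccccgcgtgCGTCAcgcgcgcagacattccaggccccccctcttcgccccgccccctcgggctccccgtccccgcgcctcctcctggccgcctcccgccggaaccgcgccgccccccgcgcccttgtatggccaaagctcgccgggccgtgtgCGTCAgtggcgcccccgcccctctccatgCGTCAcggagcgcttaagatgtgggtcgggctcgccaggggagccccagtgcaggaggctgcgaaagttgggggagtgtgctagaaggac
Npas4: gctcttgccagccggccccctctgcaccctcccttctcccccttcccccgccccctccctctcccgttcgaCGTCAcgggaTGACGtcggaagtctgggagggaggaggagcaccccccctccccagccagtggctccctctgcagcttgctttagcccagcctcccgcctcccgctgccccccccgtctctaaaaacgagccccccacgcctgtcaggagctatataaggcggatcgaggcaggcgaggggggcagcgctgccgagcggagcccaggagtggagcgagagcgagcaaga
The short form stood 2 times in the Fos, 4 times in the Nr4a1 and 2 times in the Npas4 window. It was found on either strand in 9 of the 11 called activity genes with a RefSeq entry, against 3519 of 11386 promoters of tested genes (30.9%). The 8-base form TGACGTCA, which contains the short one, was in 2 of the 11 (Btg2 and Dusp1) and in 3.23% of the 11386. A match describes the sequence and is not a measured binding site. Uncalled members of the list were not counted apart, so these shares do not bear on the area difference.

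Fos, a subunit of the AP-1 transcription factor and the common marker of recent firing, ranged from 2.96 CPM (P9) through a median of 34.3 to 143 CPM (P6) in V1, and from 4.67 through 8.30 to 34.5 CPM in S1. The V1 libraries of P5, P6 and P7 stood at 132 to 143 CPM and all others at or below 41.7 CPM, and the S1 libraries of P5 and P6, at 33.3 and 34.5 CPM, were the highest of S1. The groups overlapped, yet V1 lay above S1 in 7 of 9 animals, all but P9 and P24. The log2 difference was 2.10 (SE 0.62, adjusted p = 0.0496), and 2.27 (SE 0.59) without P9 and P24. Nr4a1, an orphan nuclear receptor, ranged from 17.8 through 52.4 to 176 CPM in V1 and from 13.7 through 21.1 to 43.6 CPM in S1. Its V1 level was above S1 in the same 7 animals, with a log2 difference of 1.45 (SE 0.38, adjusted p = 0.0366). Npas4, a neuron-specific factor that regulates inhibitory synapses, ranged from 2.51 through 6.84 to 34.4 CPM in V1 and from 1.40 through 3.07 to 7.01 CPM in S1, and was higher in V1 in 8 of 9 animals (log2 1.68, SE 0.43, adjusted p = 0.0338). P5 held the highest S1 library of Npas4, Nr4a1 and Junb. Further members with log2 differences above 1 were Egr2 (2.37, adjusted p = 0.0341), Nr4a3 (1.99, adjusted p = 0.0435), Klf4 (1.62, adjusted p = 0.0307), Btg2 (1.38, adjusted p = 0.0375), Nr4a2 (1.11, adjusted p = 0.0451), Junb (1.09, adjusted p = 0.0476) and the kinase gene Sik1 (1.06, adjusted p = 0.0312). Levels of Egr2 and Klf4 were low, at means of 3.63 and 1.80 CPM in V1. Without P9 and P24, 25 of the 32 were called higher, beside 10.2% of all genes in that fit. With the purity score 1 was called, beside 1.37% of all genes called higher, and the median was 0.70. No gene of the area score belonged to this list.

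**Figure D3:**
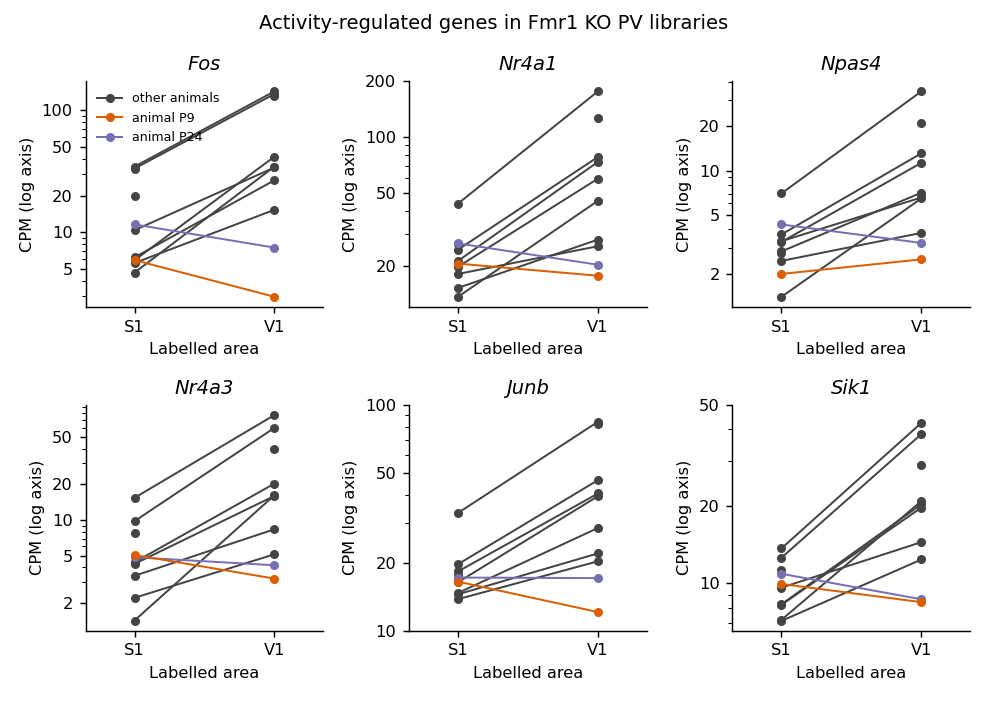
Level of 6 activity-regulated genes in each KO PV library (CPM, log axis) in S1 and V1. Lines join libraries of 1 animal, and points without a line are P7 (V1) and P8 (S1). Fos rises from S1 to V1 in 7 of 9 animals and not in P9 or P24.

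Outside that list, the genes higher in V1 included a synaptic adhesion gene and a calcium pump. Tenm2, a teneurin that binds latrophilins across the synapse, ranged from 59.0 (P9) through 132 to 193 CPM in V1 and from 49.6 through 65.0 to 119 CPM (P9) in S1. Apart from P9 and P24 the groups did not overlap, with 113 to 193 CPM in V1 and 49.6 to 77.2 CPM in S1. The log2 difference was 0.85 (SE 0.21, adjusted p = 0.0306), and 1.20 (SE 0.064) without P9 and P24. Tenm2 and Atp2b4 are genes of the area score, so their gain without these animals follows in part from how the animals were set aside. Atp2b4, a plasma membrane calcium pump, ranged from 17.2 through 33.9 to 58.7 CPM in V1 and from 11.6 through 17.3 to 29.1 CPM in S1 (log2 0.95, SE 0.23, adjusted p = 0.0312). Gnb4, a G protein beta subunit and no score gene, ranged from 3.68 through 10.4 to 13.1 CPM in V1 and from 2.51 through 4.07 to 9.59 CPM in S1, where the highest library was that of P9. Its log2 difference was 1.14 (SE 0.28, adjusted p = 0.0305), and 1.62 without P9 and P24. Also higher in V1 were Tent5a, which lengthens poly(A) tails (log2 1.43, adjusted p = 0.0306), Alkal2, a ligand of the ALK receptor (0.95, adjusted p = 0.0277), and Scn3b, a sodium channel beta subunit (0.93, adjusted p = 0.0341).

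Genes lower in V1 included channel subunits, vesicle proteins and a transcription factor. Kcng4, a silent potassium channel subunit that modifies Kv2 channels, ranged from 33.3 through 58.5 to 167 CPM in V1 and from 75.9 (P9) through 151 to 188 CPM in S1. Only P9 and P24 exceeded 75.1 CPM in V1, and every S1 library other than that of P9 reached at least 121 CPM. The log2 difference was -0.98 (SE 0.29, adjusted p = 0.0476), and -1.56 (SE 0.17) without P9 and P24. Scn4b, the sodium channel subunit linked to resurgent current and fast repeated firing, ranged from 86.9 through 128 to 292 CPM in V1 and from 135 through 278 to 337 CPM in S1 (log2 -0.81, SE 0.23, adjusted p = 0.0435). Sema3e, a secreted guidance cue read by plexin D1, ranged from 24.3 through 30.0 to 73.6 CPM in V1 and from 35.8 through 70.8 to 90.8 CPM in S1 (log2 -0.87, SE 0.22, adjusted p = 0.0341). In these 3 genes V1 was lower than S1 in 7 of 9 animals. Pou3f1, a POU-domain transcription factor, fell by 1.34 on the log2 scale (adjusted p = 0.0307), with a median of 3.64 CPM in V1 and 9.75 CPM in S1. Sv2c, a synaptic vesicle glycoprotein, fell by 1.1 (adjusted p = 0.0375) and Cadps2, which primes dense-core vesicles, by 0.99 (adjusted p = 0.0435). Other genes of this group were Trarg1 (-0.95), Egln3, an oxygen-sensing prolyl hydroxylase (-0.75), Medag (-0.70), Doc2g (-0.69), Fam198b (-0.68) and the noncoding Gm26673 (-0.65).

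PV cell markers divided by direction. Of 19 tested, 3 were called higher (15.8%) and 6 lower (31.6%) in V1, with a median of -0.04. Over all genes tested 3.47% were called higher and 4.09% lower. Pvalb, the calcium buffer that names the cells, ranged from 322 through 418 to 574 CPM in V1 and from 463 through 558 to 713 CPM in S1, and was lower in V1 in 7 of 9 animals (log2 -0.45, SE 0.10, adjusted p = 0.0284). Without P9 and P24 the groups were apart, at 322 to 447 CPM in V1 and 486 to 713 CPM in S1. The presynaptic genes Vamp1 (-0.42, adjusted p = 0.0326), Syt2 (-0.32, adjusted p = 0.044) and Cplx1 (-0.19, adjusted p = 0.0465), which serve fast transmitter release, were lower in V1. So were the Kv3.1 channel gene Kcnc1 (-0.18, adjusted p = 0.048) and Cox6a2, a cytochrome c oxidase subunit of PV cells (-0.39, adjusted p = 0.0284). Kcnc2, which encodes Kv3.2, was higher in V1. It ranged from 811 through 1060 to 1160 CPM there and from 702 through 809 to 975 CPM in S1 (log2 0.31, SE 0.065, adjusted p = 0.0277). Erbb4, the neuregulin receptor of these cells (0.28, adjusted p = 0.0401), and Rbp4, a retinol carrier (0.60, adjusted p = 0.0495), were also higher in V1. Perineuronal net and matrix genes gave 2 called higher and 4 lower of 21, with a median of 0.13. Acan, the aggrecan core protein of the net, ranged from 43.5 through 55.7 to 82.1 CPM in V1 and from 56.7 through 88.8 to 105 CPM in S1 (log2 -0.55, SE 0.12, adjusted p = 0.0284). Hapln4, a link protein that anchors aggrecan to hyaluronan, was lower as well (-0.28, adjusted p = 0.0284), as were Crtac1 and Spock1. Tnc, below 1 CPM on average, and the protease inhibitor gene Timp2 were higher.

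Voltage-gated potassium channel genes changed in both directions, with 8 called higher and 9 lower of 42 and a median of -0.06. For this and the next channel list, the shares among all genes tested were 3.47% called higher and 4.09% lower. Higher in V1 were Kcna4, Kcna5, Kcna6, Kcnb2, Kcnc2, Kcnc4, Kcnd3 and Kcnf1, which include genes of delayed rectifiers and of A-type channels. The lower ones included Kcnc1, Kcng4, Kcnh2, Kcnq5 and Kcns1 and the auxiliary subunits Kcnab2, Kcnip1 and Kcnip4. Genes of the Kv3 family, which repolarises fast-spiking cells, were called in both directions: Kcnc2 and Kcnc4 (0.66, adjusted p = 0.0284) were higher in V1, and Kcnc1 was lower. Kcna6 rose from a mean of 115 CPM in S1 to 171 CPM in V1 (log2 0.55, adjusted p = 0.0366). Among sodium, calcium and HCN channel genes 2 of 31 were called higher (6.45%), Scn2a (0.48, adjusted p = 0.0341) and Scn3b. Another 3 were called lower (9.68%), among them Scn4b and the T-type calcium channel gene Cacna1i (-0.28, adjusted p = 0.0326).

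Receptor lists held a few called members in each direction, beside 3.47% called higher and 4.09% lower of all genes tested. The shares were 4.17% higher and 8.33% lower for the GABA-A list, and 11.8% in each direction for the glutamate list. Of 24 genes of GABA-A receptors and inhibitory synapses, Gabrb1 was called higher (0.49, adjusted p = 0.0404), and 2 subunit genes of extrasynaptic receptors lower, Gabra5 (-0.47, adjusted p = 0.0277) and Gabrd (-0.27, adjusted p = 0.0434). Glutamate receptor and postsynaptic genes gave 4 higher and 4 lower of 34. Grm5, a group I metabotropic receptor, ranged from 128 through 184 to 205 CPM in V1 and from 99.5 through 142 to 166 CPM in S1 (log2 0.35, adjusted p = 0.0341). Grm7 and Homer2 were also among the higher members, and Grm4, Grin2a and Grid1 among the lower ones. Receptors for amines, acetylcholine and peptides gave 4 higher (9.09%) and 2 lower (4.55%, near the share of all genes) of 44. The serotonin receptor gene Htr2a (0.50, adjusted p = 0.0435) and the histamine receptor gene Hrh1 (0.82, adjusted p = 0.0312, mean 2.86 CPM in V1) were higher in V1. The nicotinic receptor gene Chrna7 (-0.51, adjusted p = 0.0297) and the histamine receptor gene Hrh3 (-0.41, adjusted p = 0.0319) were lower. Cartpt and Vip were called higher among 18 neuropeptide precursors (11.1%). Vip lay at 1.75 to 3.33 CPM in V1 and 0.549 to 1.63 CPM in S1, so that its groups did not overlap. It was the 1 gene of 16103 distinct symbols tested (0.00621%) of which this held over all 20 libraries. Without P9 and P24 it held for 523 of them (3.25%) and for 46 of the 95 named genes, which had been chosen among called genes.

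Guidance and adhesion genes were mostly higher in V1 where they were called. Over all genes tested 3.47% were called higher and 4.09% lower. The shares higher were 31.6% for Eph receptors and ephrins, 18.2% for cadherins and 14.3% for area patterning genes. Semaphorins and their kin had 6.25% in each direction, and adhesion organizers 5.56% higher and 8.33% lower. Eph receptors and ephrins, which guide axons and map sensory areas, gave 6 called higher and 0 lower of 19, with a median of 0.19. These were Epha6 (0.41), Epha7 (0.27), Ephb6 (0.19), Efna5 (0.35), Efnb2 (0.34) and Efnb3 (0.46), with adjusted p between 0.0305 and 0.0474. Of 22 cadherins with areal patterns 4 were called higher and 0 lower, namely Cdh11, Cdh12, Pcdh11x and Pcdh15. Without P9 and P24, 13 were called higher and 3 lower, beside 10.2% higher and 11.4% lower of all genes in that fit. Semaphorins, plexins, netrins and slits gave 2 higher, Plxna3 (0.66, adjusted p = 0.0277) and Sema3d, and 2 lower, Sema3e and Sema7a (-0.51, adjusted p = 0.0366), of 32. Synaptic adhesion organizers gave Cntn3 and Cntn5 as higher and Lrrtm1, Lrfn2 and Clstn2 as lower, of 36. Genes of cortical area patterning gave 3 higher and 0 lower of 21, with a median of 0.22. They were Crym, a thyroid hormone-binding protein (1.21, adjusted p = 0.0291), Lhx2 (0.58, adjusted p = 0.0495) and Nr2f2 (0.76, adjusted p = 0.0359). Crym lay at 1.14 through 3.47 to 4.98 CPM in V1 and at 0.687 through 1.11 to 3.21 CPM in S1, and P9 held the highest S1 library. The thyroid-responsive corepressor gene Hr, of the list of retinoic acid and thyroid signalling, was lower in V1 (-0.55, adjusted p = 0.0357).

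Nuclear-encoded oxidative phosphorylation genes were lower in V1. Of 42 tested, 20 were called lower (47.6%, against 4.09% of all genes tested) and 0 higher. The log2 difference was negative in 41, and its median was -0.21. The called genes encode subunits of complex I (Ndufa1, Ndufa2, Ndufa4, Ndufa8, Ndufa10, Ndufb5, Ndufb8, Ndufb9 and Ndufb10), complex II (Sdhd), complex III (Uqcrq), cytochrome c oxidase (Cox4i1, Cox5b, Cox6a1, Cox6a2, Cox6c, Cox7a2 and Cox7b) and ATP synthase (Atp5d and Atp5o). Ndufa4 is also assigned to cytochrome c oxidase. Ndufa1 fell by 0.44 (adjusted p = 0.0305), the widest of them, and Sdhd by 0.17 (adjusted p = 0.0454). Atp5o ranged from 191 through 218 to 259 CPM in V1 and from 225 through 260 to 299 CPM in S1 (log2 -0.25, SE 0.054, adjusted p = 0.0278). Its groups overlapped, also without P9 and P24. The summed level of the 42 genes had a median of 11500 CPM in V1 (10700 to 13100) and 12600 CPM in S1 (11300 to 14100). Mitochondrially encoded genes, transcribed within the organelle, did not pass in either direction (0 of 13), and all 13 log2 differences were positive, with a median of 0.34. Their summed level spread widely, from 11700 to 35000 CPM in V1 and from 5130 to 26400 CPM in S1. These mRNAs are translated on mitochondrial ribosomes, which carry no HA tag. Cytosolic ribosomal protein genes gave 5 called lower (8.33%) and 0 higher of 60, with a median of -0.09.

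Of 50 commonly cited FMRP target mRNAs 3 were called higher (6.0%, Grm5 and Scn2a among them) and 2 lower (4.0%, Grin2a and Atp2b2), beside 3.47% higher and 4.09% lower of all genes. Of 40 genes of cAMP and EPAC signalling 5 were called higher (12.5%) and 0 lower. These were the adenylyl cyclase gene Adcy8 (0.27, adjusted p = 0.0384), the phosphodiesterase genes Pde1b (0.16, adjusted p = 0.0329), Pde1c (0.98, adjusted p = 0.033, near 1 CPM) and Pde2a (0.20, adjusted p = 0.0388), and the Rap exchange factor gene Rapgef6 (0.29, adjusted p = 0.0477). Rapgef4, the gene of EPAC2, which activates Rap when bound by cAMP, ranged from 317 through 349 to 385 CPM in V1 and from 323 through 354 to 370 CPM in S1, and did not pass (log2 -0.04, SE 0.037, adjusted p = 0.457).

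Markers of cells other than PV neurons gave more called genes higher than lower in V1 in most lists, beside 3.47% higher and 4.09% lower of all genes tested. Astrocyte markers gave 4 higher (Gfap, Slc1a3, Sox9 and Gpc5) and 1 lower (S100b) of 18, with a median of 0.35, and a summed level of 730 to 1110 CPM in V1 and 615 to 923 CPM in S1. S100b, known also from some neurons, fell by 0.60 (adjusted p = 0.0286). Oligodendrocyte markers gave Cnp and Mal as higher of 17 (median 0.22, summed level 681 to 1020 against 533 to 845 CPM). Oligodendrocyte precursor markers gave Pdgfra and Matn4 of 11 (median 0.44, 32.6 to 61.4 against 23.4 to 47.1 CPM). Microglia markers gave Cx3cr1, P2ry12 and Ctss of 15 (median 0.34, 48.4 to 84.5 against 40.9 to 65.8 CPM). Matn4 (0.70) and P2ry12 (0.59) stood at 0.32 and 0.12 with the glial score, which holds P2ry12 itself, and at -0.02 and -0.04 with it without P9 and P24. Vascular and meningeal markers gave Kdr, Myh11 and Slc47a1 of 19 (median 0.49, 58.4 to 142 against 41.7 to 89.7 CPM). None of these lists had a member at 0 in all 20 libraries. Red blood cell markers gave 0 of 4. Markers of other interneurons gave 4 higher (Vip, Ndnf, Nos1 and Prox1) and 0 lower of 17 (median 0.18). Excitatory markers gave 2 higher (Slc30a3 and Rasgrf2) and 0 lower of 18, with 9 log2 differences positive and 9 negative (median 0.03). Upper layer genes gave 2 higher of 15, with 6 log2 differences positive and 9 negative (median -0.06). Deep layer genes gave 2 higher (Crym and Rprm) of 19 (median 0.21). Genes of layer 4 and sensory input gave 1 lower of 10 (median -0.06), Hsd11b1 (-1.35, adjusted p = 0.0435, mean 2.08 CPM in V1). Striatum and thalamus markers gave 0 of 12 and 0 of 11, and hippocampus and subiculum markers 1 of 10, Prox1.

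The area difference was then set against that of WT PV cells, where 3291 of 15964 genes (20.6%) were called, 1702 higher (10.7%) and 1589 lower (9.95%) in V1. No gene passed the test of the difference between genotypes: 0 of 16733 were called for KO minus WT (312 at an unadjusted p under 0.05), and 0 as well with DESeq2 and with limma-voom (331 and 562 at an unadjusted p under 0.05). This does not show that the genotypes were alike. Of the 1218 genes called in the KO, 845 were also called in WT, 69.4% of the KO and 25.7% of the WT genes, all 845 in the same direction. Of 1210 that could be tested in WT, 1205 had the same sign. Without P9, P24 and the WT animal P22 the counts were 3479 and 5060, with 2675 shared. Fos showed log2 differences of 2.10 in KO and 2.12 in WT (difference -0.11, SE 0.74), Tenm2 0.85 and 0.94 (difference -0.10, SE 0.27), and Acan -0.55 and -0.64 (difference 0.08, SE 0.21). Pvalb stood at -0.45 in KO and -0.41 in WT, where it was not called (adjusted p = 0.162). Pou3f1 was likewise called in KO and not in WT (-0.93, adjusted p = 0.0846), and its difference did not pass (adjusted p = 1). The activity list gave 26 called higher of 32 in WT and the oxidative phosphorylation list 27 lower of 42. Among the genes with the smallest p for the genotype difference, Fgfr1op had a log2 area difference of -0.06 in KO and -0.34 in WT, and 2010315B03Rik 0.16 in KO and -0.15 in WT.

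**Figure D4:**
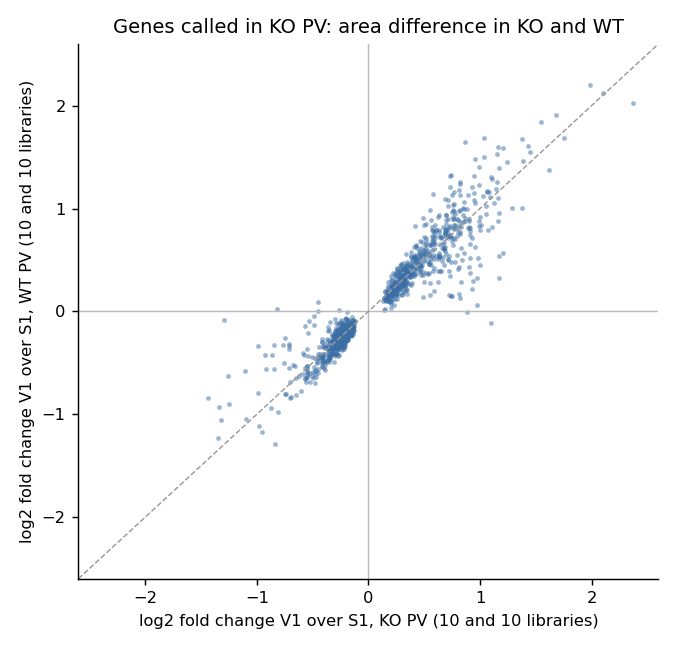
Log2 fold change of V1 over S1 in KO PV (horizontal axis) and WT PV libraries (vertical axis), 1 point per gene called in the KO and tested in WT. The dashed line marks equal values, and 1205 of 1210 points share their sign.

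Against Camk2a neurons of the KO, the area difference depended on cell class for 701 of 17255 genes (4.06%), 377 more positive in PV cells (2.18%) and 324 more negative (1.88%). Camk2a libraries alone gave 2058 called genes of 15754 (13.1%), 1011 higher (6.42%) and 1047 lower (6.65%) in V1. Of the 1218 genes called in PV cells 386 were called in both classes, 31.7% of the PV and 18.8% of the Camk2a genes, and 356 of these had the same sign. Sema3e had opposite signs. It was lower in V1 in PV cells (-0.87) and higher in V1 in Camk2a cells, where V1 held 44.6 ± 7.41 CPM (SD, n = 6) and S1 26.4 ± 3.18 CPM (n = 7; log2 0.75), and the class difference was -1.62 (SE 0.29, edgeR adjusted p = 0.000784). Efna5, an ephrin, went the other way, at 0.35 in PV and -0.57 in Camk2a cells (difference 0.92, SE 0.13, adjusted p = 1.78e-05). Gabra5 stood at -0.47 and 0.54 (difference -1.01, SE 0.18, adjusted p = 0.000419), and the adhesion gene Lrrtm1 at -0.24 and 0.48 (difference -0.72, SE 0.096, adjusted p = 7.88e-06). Cartpt was higher in V1 in PV cells (0.78) and lower in Camk2a cells (-2.24), and the difference was called (2.82, SE 0.54, adjusted p = 0.00153). Its Camk2a levels were low, with medians of 0.953 CPM in V1 (0.244 to 5.42) and 5.93 CPM in S1 (4.45 to 9.1). Kcnc2 differed between classes by 0.71 (SE 0.18, adjusted p = 0.0188). Gpr161, a ciliary receptor, showed 0.03 in PV and 2.23 in Camk2a cells (difference -2.19, SE 0.28, adjusted p = 1.05e-05). Other genes were called in the same direction in both classes. Tenm2 was higher in V1 (0.85 in PV and 1.14 in Camk2a cells), as was Atp2b4 (0.95 and 0.90). Kcng4 (-0.98 and -1.29), Scn4b (-0.81 and -1.79) and Sema7a (-0.51 and -0.79) were lower in both. None of these 5 class differences passed (adjusted p = 0.62, 0.964, 0.738, 0.065 and 0.486), which does not show that they were equal. For Scn4b the difference was 0.96 (SE 0.30). Kcng4 was low in Camk2a libraries, at means of 2.69 CPM in V1 and 6.98 CPM in S1, against 74.7 and 144 CPM in PV libraries. Pvalb, not called in Camk2a libraries (edgeR adjusted p = 0.187), stood there at means of 5.27 CPM in V1 and 14.5 CPM in S1. Its medians there were lower, at 2.72 and 6.86 CPM, and the highest libraries held 18.8 and 59.7 CPM. Whether mRNA of PV cells was carried along was not tested. The activity list gave 6 called higher of 31 in Camk2a cells (median 0.47), where Fos had 0.57 and was not called (adjusted p = 0.288), and the class difference of Fos did not pass (1.28, SE 0.83, adjusted p = 0.465). Oxidative phosphorylation genes gave 1 higher and 0 lower of 42 in Camk2a cells, with a median of 0.01, and for Atp5o the class difference did not pass (adjusted p = 0.149).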

How the data were processed

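RiboTag immunoprecipitates were sequenced as paired-end reads of 100 bases. The values deposited by the authors are estimated counts per gene for 69 libraries and 17634 genes (71.1% of values not whole). The submitters' processing notes name STAR, Salmon, limma and mm10, without roles or versions. How counts were assigned to strands and shared between similar genes is not given in the sources used here, so paralogs and overlapping genes carry uncertain values. GENCODE release M21 named 17614 genes and left 20 without a symbol.

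Groups, animals, sex and area came from the labels. All PV and KO Camk2a libraries were labelled Batch 1. The WT Camk2a libraries, 8 per area, served only to rank genes for an alternative area score, and the S1 library of C24 among them was labelled Batch 2. Estimated counts were rounded, filtered with filterByExpr, scaled with TMM factors and fitted with edgeR 4.0.16 (R 4.3.3, robust quasi-likelihood, sex as covariate, Benjamini-Hochberg adjustment over all genes tested). Interactions of area with genotype and with cell class were fitted over all libraries concerned. CPM values are rounded counts scaled to a library total of 1e+06. The score genes exclude Xist and Y-linked genes and have a mean of at least 5 CPM. Every pair of libraries within an area differed by more than counting noise (smallest chi-square per degree of freedom 8.55). The library names carry the animal, so equal numbers pair the areas of 1 animal. Correlations of their deviations from the group means ran from -0.02 to 0.56 over 9 animals.

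The libraries, the 36 gene lists and the tests were chosen with earlier results of these data known. Named genes were Fmr1, Rapgef4, the 12 called genes per direction with the largest change (mean CPM of 5 or more), up to 2 called members per list and direction by p, and 3 per direction for each interaction. Other called list members are named from the complete list, except some genes that are not reported here. The fits were tested on simulated data. Alternatives were DESeq2 1.42.0, limma-voom 3.58.1, other filters and scaling, the animal block, purity and glial scores, and leaving out animals.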

Additional observations from a re-analysis of the deposited data

Results flagged for a closer look

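Libraries standing apart from the rest of their group were looked for in 97 named genes and both areas, 194 tests in all by Dixon's criterion, of which chance flags about 1 in 20. In 24 of them the highest or lowest library stood apart. P9 accounts for 10, and it is the animal whose areas run against the others in the area score. In S1 it was highest for Gnb4 (9.59 CPM), Scn3b (18.2), Crym (3.21), Plxna3 (11.4), Cartpt (9.64) and Pde1b (97.5), and lowest for Egln3 (10.0) and Hrh3 (172). In V1 it was highest for Kcnq5 (59.2) and Grm4 (20). P5 was highest in S1 for Npas4 (7.01), Nr4a1 (43.6) and Junb (33.2), and in V1 for Klf4 (6.26) and Myh11 (1.86). P23 was highest in S1 for Pou3f1 (26.6), Sv2c (41.0), Hsd11b1 (13.6), Gabra5 (17.2) and Grm4 (28.6), highest in V1 for Rbp4 (44.8) and Cartpt (18.3), and lowest in V1 for Atp2b2 (876). P25 was highest in S1 for Gabrd (329). The cause was not tested.

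In 19 named genes the area difference itself differed between PV and Camk2a cells of the KO, by the interaction term in edgeR. Over all genes tested for it, 701 of 17255 (4.06%) were called. Cartpt, Tac1, Nexn, Gm2115, Tshz2 and Gpr161 were named because this term was called. The others were named among genes called in KO PV libraries, which also enter the term, so the count of 19 is a description. The PV difference was the more positive in Kcnc2 (0.71), Efna5 (0.92), Cartpt (2.82), Pde1b (0.49), Atp2b2 (0.39), Matn4 (1.34), Tac1 (2.62) and Nexn (1.67). It was the more negative in Pou3f1 (-1.77), Sema3e (-1.62), Prox1 (-3.36), Lrrtm1 (-0.72), Lrfn2 (-0.50), Kcnip4 (-0.50), Gabra5 (-1.01), Grid1 (-0.39), Gm2115 (-2.88), Tshz2 (-2.31) and Gpr161 (-2.19), all on the log2 scale. The Prox1 value rests on some Camk2a V1 libraries, which had a median of 0.464 and a maximum of 25.2 CPM against an S1 median of 0.42 CPM, and its Camk2a area difference was not called (adjusted p = 0.0576).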

How the results depend on the processing

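The 1218 genes called between V1 and S1 in KO PV libraries were 1255 with RLE scaling, 1119 without a filter, 1313 with a mean of at least 1 CPM, 1333 without the sex term, 2058 with DESeq2 and 1899 with limma-voom and the animal as a random effect. Leaving out 1 animal in turn gave 0 to 2508. Setting aside P9 and P24 gave 3479. The purity score gave 496, and 3258 without these animals, and the glial score 0 and 434. In WT PV libraries, 3291 genes became 5060 without P22. Among KO Camk2a libraries, the S1 library of C4 lay on the V1 side of the score, at 1.42 against their boundary of 1.29. Without C4 the 2058 genes of KO Camk2a libraries became 1808. Without P9, P24 and C4 the 701 genes of the class difference became 614. The cause was not tested. No alternative gave a called genotype difference. With genes ranked on WT Camk2a libraries, 5 in place of 3 KO PV libraries went against their area label. With 20 genes per direction ranked on WT PV libraries, 4 did so.

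The animal block, which pairs the areas of 1 animal, gave 0 called genes in KO PV cells, 4617 without P9 and P24, and 3276 in KO Camk2a cells in place of 2058. In WT PV cells it gave 4243 and for the class difference 1043 in place of 701, and it changed no genotype count. Of 97 named genes, 95 had been called, all but Fmr1 and Rapgef4. All 95 lost their call under the block over all 9 animals. Without P9 and P24, Matn4 lost it (adjusted p = 0.0698).

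Of the named genes, 4 changed sign. Fmr1, at 0.09, was -0.13 with the glial score and -0.40 with it without P9 and P24, 0.00 with the purity score without them, and -0.01 to 0.14 with 1 animal left out. Rapgef4, at -0.04, was 0.01 with the glial score in either set. Neither was called. Matn4 and P2ry12, called at 0.70 and 0.59 (0.67 and 0.66 without P9 and P24), were -0.02 and -0.04 with the glial score and without P9 and P24. The alternatives that set aside P9 and P24 beside the block or a score, and sex read from Y-linked genes (1372 genes), were added after seeing the data. Estimated counts ran from 30.8 to 46.8 M in KO PV libraries. Leaving out P9 or P24 gave more called genes (2508 and 2354), and leaving out P5, P6, P10, P12, P23 or P25 gave 0. Why the counts changed was not tested. Low genes such as Tnc or Pde1c, near 1 CPM, are the least certain.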
